A study of Rattus norvegicus with 14 samples.

Results

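The 10 genes described here encode subunits of the AMPA and NMDA glutamate receptors: Gria1, Gria2, Gria3, Gria4, Grin1, Grin2a, Grin2b, Grin2c, Grin2d and Grin3a. They were chosen by symbol from 18239 genes listed for neurons and 31791 listed for astrocytes, and all 10 were present in both tables. Hippocampal cells of Sprague Dawley rat fetuses at embryonic day 18 were grown as neuron or astrocyte cultures and given allopregnanolone (Allo, a neurosteroid made from progesterone) at 100 nM or its vehicle, 0.001% ethanol. Both arms were in a supplement-reduced medium that the study calls its Aging Model (AM), so neither arm was a culture in full medium. Neurons were taken on day 10 in culture, kept for 4 h in AM with 0.2% B27 supplement and treated for 16 h (4 AM-Veh and 4 AM-Allo libraries). Astrocytes were the attached cells left after mixed glia had been shaken overnight, kept for 24 h in AM with 10% charcoal-stripped serum and treated for 24 h (3 AM-Veh and 3 AM-Allo libraries). Neither source says whether libraries of a group came from separate cultures or litters, so p-values measure the spread between these libraries, which may be technical.

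AMPA receptors are tetramers of GluA1 to GluA4, encoded by Gria1 to Gria4, and carry most of the fast current at excitatory synapses. The RNA of Gria2 is edited at a codon in the pore, and receptors that hold the edited GluA2 pass little calcium. NMDA receptors need the obligatory subunit GluN1, encoded by Grin1, together with GluN2 subunits (Grin2a to Grin2d) or GluN3 subunits (Grin3a). Those with GluN2A or GluN2B pass current mainly when the membrane is depolarized, and let calcium in. In the developing hippocampus GluN2B comes before GluN2A, whose share grows as synapses mature, while GluN3A is highest in early postnatal life. The study asked how Allo acts on both cell types and looked at calcium signaling, in which these receptors take part.

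The values are normalized counts, that is, the estimated reads of a gene, imported with tximport and scaled by DESeq2 to make libraries comparable. That scaling may hold a length correction for each gene besides the library's size factor. They sum to between 21984994 and 22357547 per neuron library and between 23783755 and 24006620 per astrocyte library, and 1 read is worth about 0.874 to 1.14 normalized counts in neurons and 0.839 to 1.07 in astrocytes. Changes were tested with limma on log2(normalized count + 1) among genes with a mean of at least 10, and a gene is said to have changed where its unadjusted p is under 0.05, the threshold the study used. The log2 scale with the added count understates changes of genes with few reads. No transcript length was used here, so levels of different genes are not compared, and shares within a family are shares of counts, in which a longer transcript weighs more. Sums and shares of NMDA counts cover the 6 listed genes and leave out Grin3b, another NMDA subunit gene.

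The neuron cultures held glia. Their neuron markers were led by Map2 (24730 ± 681.8, SD, n = 4 AM-Veh libraries) and Stmn2, and Slc17a7, the vesicular transporter of glutamatergic neurons, stood at 1969 ± 216.2. Beside them stood Gfap, an astrocyte filament gene, at 94230 ± 22410 and Slc1a3, an astrocyte glutamate transporter, at 60230 ± 2316. Olig1 at 14680 ± 787.8 and Olig2 at 8969 ± 459.7 led the oligodendrocyte lineage markers. All 8 astrocyte markers and all 7 oligodendrocyte lineage markers were present, whereas of the microglia markers only Tmem119 (17.2 ± 2.85) passed a mean of 10. In the astrocyte cultures Gfap stood at 135900 ± 4332 and Slc1a3 at 45010 ± 1657 (n = 3), the neuronal genes Rbfox3, Nefl, Nefm and Slc17a7 had means under 10, and Stmn2 at 21790 ± 295 and Map2 at 3873 ± 192.4 led the neuron marker list all the same. These astrocyte libraries also held the collagen genes Col1a2 (29770 ± 2223) and Col1a1 (23510 ± 2058), and microglia marker sums of 827.9 to 1132, while Cldn5 (endothelial cells) was at 0 in all 6. Of the 6 GABAergic markers in the astrocyte libraries, Gad1, a GABA synthesis enzyme gene, stood at 1803 ± 83.42 and Sst at 80.22 ± 13.44 in AM-Veh, Gad2, Slc32a1 and Dlx1 had means under 10 in AM-Veh, and Npy was at 0, and the sums of the list ran from 1815 to 2031. Fewer cells of a type and less RNA per cell cannot be told apart in these bulk libraries, and the part of each cell type in the values that follow was not tested.

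None of the 10 subunit genes changed with Allo in neurons, where 5.69% of 15314 genes tested did (3.21% higher and 2.48% lower). No member passed an adjusted p of 0.05, which 0.0261% of genes did, and none had AM-Allo and AM-Veh libraries that did not overlap, as 3.95% of genes had. The estimates lay above 0 for 9 members and below 0 for Gria4, with a median log2 difference of 0.0747 over the 10 against -0.00153 over all genes tested. The 6 NMDA subunits had a median of 0.147 and the 4 AMPA subunits a median of 0.0314. These results are from the fit without the library numbers. Grin3a came nearest to the unadjusted threshold and passed it once the first number of the libraries was used as a block, as described below.

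**Figure D1:**
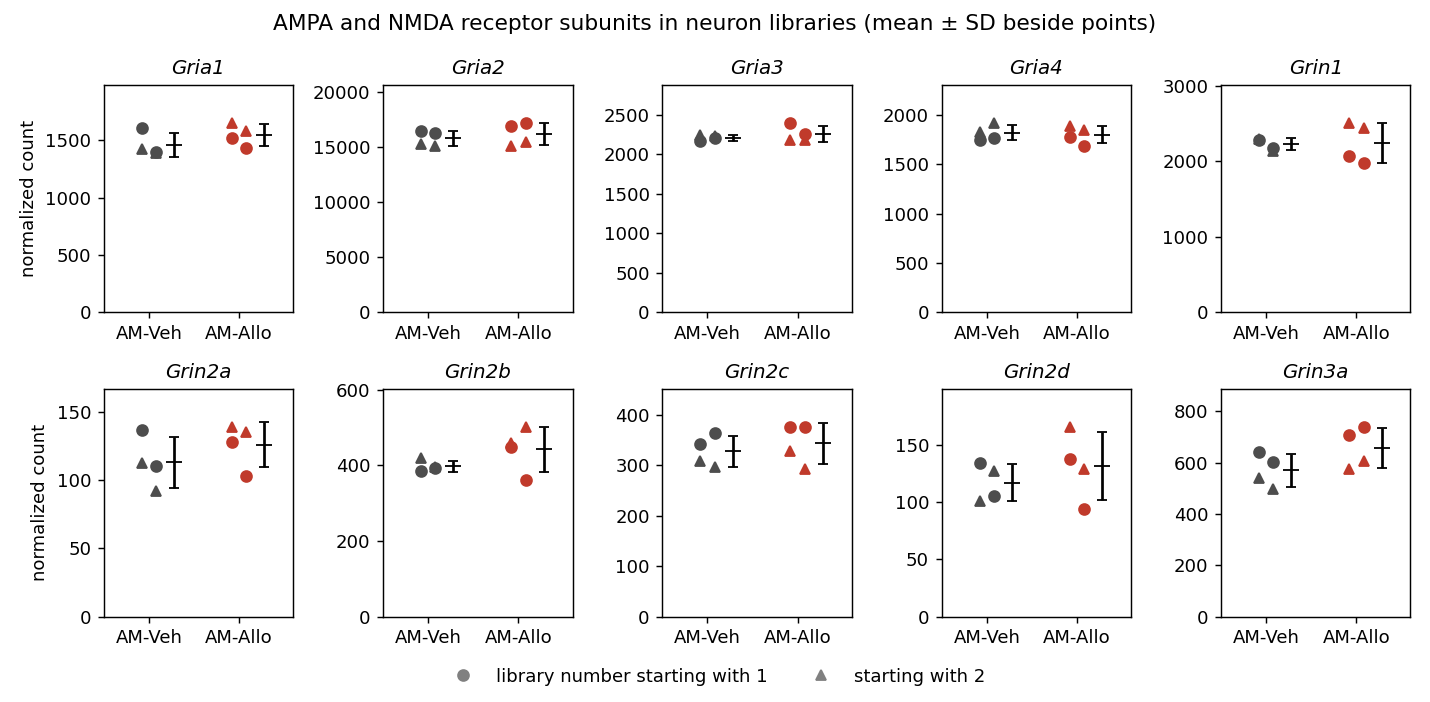
Normalized counts of the 10 subunit genes in each neuron library (y axes start at 0; circles, library numbers starting with 1; triangles, numbers starting with 2; bars beside the points, mean ± SD of 4 libraries). The AM-Allo and AM-Veh points overlap for all 10 genes, and for Grin3a both AM-Allo points lie above both AM-Veh points of the same symbol.

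Grin3a encodes GluN3A, a glycine-binding subunit that lowers the calcium flow of the receptors it joins. It stood at 641, 601, 539 and 498 normalized counts in AM-Veh libraries 1-1, 1-2, 2-1 and 2-2 and at 709, 739, 574 and 605 in the AM-Allo libraries of those numbers. The groups overlapped, since both AM-Allo libraries numbered 2 lay among the AM-Veh values, but each AM-Allo library lay above both AM-Veh libraries with its first number. The log2 difference was 0.20 ± 0.0989 (SE), with a 95% interval from -0.0152 to 0.423 (limma p = 0.065, adjusted p = 0.88; two-sided exact permutation p = 0.143). The neuron numbers have 2 parts, and libraries with the same first number deviated together, so the same fit was also made with the first number as a block. With that replicate block Grin3a was higher by 0.20 ± 0.0494, with limma p = 0.000946 and adjusted p = 0.0924, while an exact permutation of treatment within first numbers gave p = 0.0556, the smallest its 36 arrangements allow. It was then the 1 member of 10 called, where 11% of genes were. Leaving out AM-Veh 1-1 or either AM-Allo library numbered 2 also brought the unblocked estimate past the unadjusted threshold. The study tested these same libraries with DESeq2. It lists Grin3a as significantly changed in its synaptogenesis, long-term potentiation and calcium signaling pathways. The unblocked fit here did not call Grin3a at the same threshold. Because the libraries are the same, the direction of Grin3a here is not independent evidence.

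Grin2b encodes GluN2B, the GluN2 subunit of young synapses. It stood at 385, 392, 419 and 395 in AM-Veh libraries 1-1, 1-2, 2-1 and 2-2 and at 448, 360, 459 and 501 in AM-Allo. AM-Allo 1-2 was the lowest library of the 8, and the other AM-Allo libraries were the highest 3. The log2 difference was 0.14 ± 0.0919 (limma p = 0.149, adjusted p = 0.948; exact permutation p = 0.2), and without AM-Allo 1-2 it was 0.24 and passed the unadjusted threshold.

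Grin2a encodes GluN2A, the subunit of mature synapses. It stood at 137, 111, 113 and 92.0 in AM-Veh and at 128, 103, 139 and 135 in AM-Allo, a log2 difference of 0.16 with a 95% interval from -0.154 to 0.475. Its lowest and second highest values were both AM-Veh libraries. Grin2c, whose product is best known from cerebellar granule cells and from astrocytes, stood between 296 and 363 in AM-Veh and between 293 and 375 after Allo. Grin2d, whose product is found in interneurons, stood between 101 and 134 and between 94.2 and 166. Their log2 differences were 0.06 and 0.15, each smaller than its standard error, and the intervals reached from -0.152 to 0.28 and from -0.224 to 0.527.

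Grin1 encodes GluN1, which every NMDA receptor contains. It stood at 2287, 2180, 2298 and 2136 in AM-Veh libraries 1-1, 1-2, 2-1 and 2-2 and at 2066, 1975, 2509 and 2435 in AM-Allo. The AM-Allo libraries numbered 1 were the lowest pair of the 8 libraries and those numbered 2 the highest pair. Its log2 difference over all 8 libraries was 0.01 ± 0.0729 (limma p = 0.929; exact permutation p = 0.943), with a 95% interval from -0.155 to 0.168.

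The promoter of Grin1 is shown because Grin1 had the smallest limma p of the 10 members for a dependence of the difference with Allo on the set of libraries, and because CREB, the factor that binds the cAMP response element, is activated by calcium entry. The 250 bases before its start on RefSeq GRCr8 (chr3:28528755-28529004, minus strand, 57.6% G and C) read 5′ to 3′, with the core of that element (TGACG, or CGTCA on the other strand) in capitals:
Grin1: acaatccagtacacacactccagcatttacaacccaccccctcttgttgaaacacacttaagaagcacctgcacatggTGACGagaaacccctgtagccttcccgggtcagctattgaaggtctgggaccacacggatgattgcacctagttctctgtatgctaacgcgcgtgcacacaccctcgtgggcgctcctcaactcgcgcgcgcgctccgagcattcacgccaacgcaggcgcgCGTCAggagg
The core appears 2 times, its first base 172 and 10 bases before the start, and it was found in 18.2% of 33469 rat promoters of this length, counting both strands. Of the 5 members in the promoter table (Grin1, Grin2c, Grin2d, Grin3a and Gria4), the other 4 held no such core, and none held the full element TGACGTCA, which contains the core and was found in 1.59% of promoters. A match is a description of letters, and these data hold no measure of binding.

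The median log2 difference with Allo in neurons was 0.0314 over the 4 AMPA subunit genes and 0.147 over the 6 NMDA subunit genes, and the difference between the families was not tested. Gria1, whose GluA1 is added to synapses during potentiation, stood at 1610, 1401, 1427 and 1386 in AM-Veh and 1516, 1432, 1651 and 1579 in AM-Allo. It overlapped between the groups through AM-Veh 1-1, the second highest library, and its log2 difference was 0.09 ± 0.0585 (limma p = 0.173; exact permutation p = 0.229). Without AM-Veh 1-1 the difference was 0.13 and passed the unadjusted threshold.

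Gria2 stood at 16489, 16264, 15245 and 15090 in AM-Veh libraries and at 16925, 17191, 15126 and 15458 in AM-Allo, and its log2 difference was 0.04 with a 95% interval from -0.0741 to 0.145. The 4 libraries numbered 1 lay above the 4 numbered 2 whatever the treatment. Gria3 stood between 2166 and 2249 in AM-Veh and between 2178 and 2401 in AM-Allo (log2 difference 0.03, exact permutation p = 0.543). Gria4 stood between 1747 and 1918 in AM-Veh and between 1687 and 1885 in AM-Allo (log2 difference -0.01, exact permutation p = 0.8), and both genes overlapped widely between the groups.

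The intervals given here are those of the fit without the replicate block and bound only what that fit could show. With the block the standard errors of the log2 differences were smaller. They were 0.0211 against 0.0494 for Gria2, 0.0517 against 0.0729 for Grin1, 0.0735 against 0.0919 for Grin2b and 0.0494 against 0.0989 for Grin3a. In neurons the 95% interval of the fold, AM-Allo over AM-Veh, ran from 0.95 to 1.11 for Gria2, from 0.898 to 1.12 for Grin1, from 0.959 to 1.27 for Grin2b and from 0.99 to 1.34 for Grin3a. The widest were those of Grin2d, from 0.856 to 1.44, and Grin2a, from 0.899 to 1.39, which had the fewest reads.

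**Figure D2:**
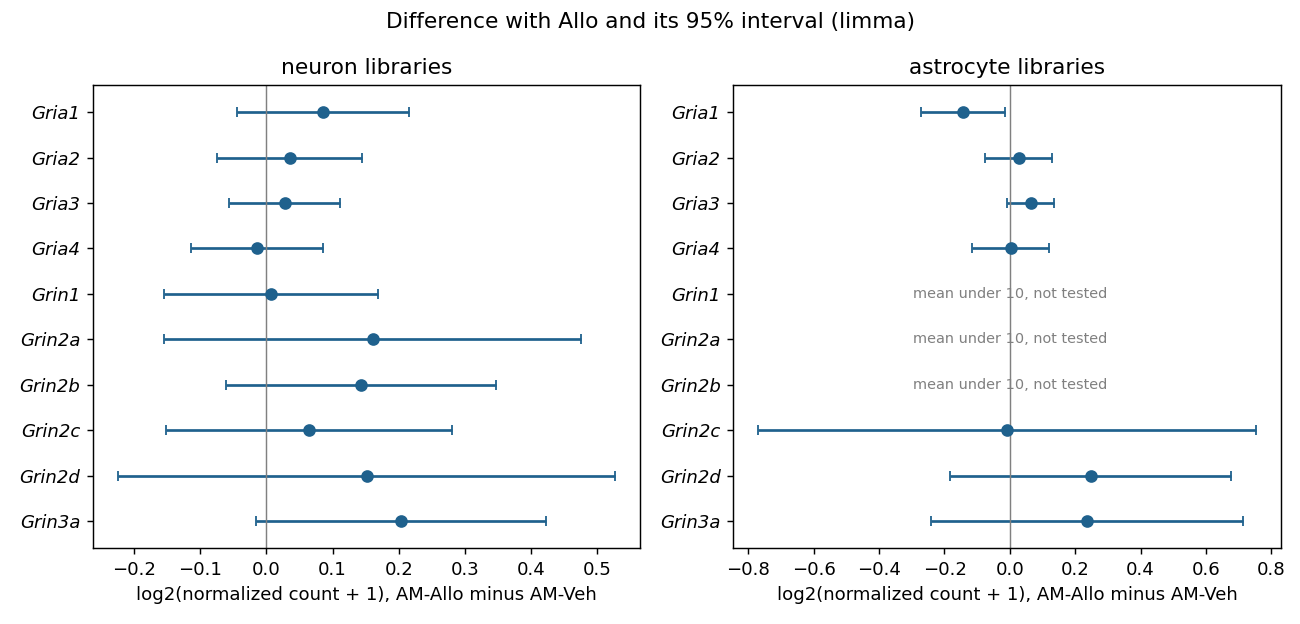
Difference with Allo, AM-Allo minus AM-Veh on log2(normalized count + 1), for each subunit gene, with points for the limma estimate and bars for its 95% interval (left, neurons, 4 against 4 libraries; right, astrocytes, 3 against 3; the x axes differ in scale). The intervals are those of the fit without the replicate block. In that fit all 10 neuron intervals include 0. Of the 7 astrocyte members tested, Gria1 alone has an interval that lies below 0, from -0.271 to -0.0152.

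No subunit balance differed between the neuron groups beyond the spread of the libraries. The ratio of Grin2a to Grin2b counts was 0.357, 0.283, 0.270 and 0.233 in AM-Veh libraries 1-1, 1-2, 2-1 and 2-2 and 0.286, 0.286, 0.303 and 0.270 in AM-Allo. The AM-Allo ratios lay inside the AM-Veh range, and the mean log2 difference was 0.02 (two-sided exact permutation test, p = 0.886, where 4 against 4 can reach 0.0286). The log2 ratios varied with an SD of 0.255 in AM-Veh and 0.0686 in AM-Allo.

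Gria2 made up 74.2% ± 1.00 of the AMPA subunit counts in AM-Veh (SD, n = 4) and 74.2% ± 1.58 in AM-Allo, a difference of 0.0605 percentage points (two-sided exact permutation p = 0.943). By library it was 74.9%, 75.2%, 73.5% and 73.2% in AM-Veh and 74.8%, 76.2%, 72.6% and 73.4% in AM-Allo. Every library numbered 1 had a larger share than every library numbered 2. Gria3 took 9.84% to 10.8% of the AMPA counts over the 8 libraries, Gria4 7.48% to 9.30% and Gria1 6.34% to 7.92%.

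Summed AMPA subunit counts were 5.49 to 5.82 times the summed NMDA subunit counts in AM-Veh and 4.99 to 6.19 times in AM-Allo (mean log2 difference -0.04, two-sided exact permutation p = 0.657). The AM-Allo ratios of 5.85 and 6.19 in libraries 1-1 and 1-2 were above all 4 AM-Veh ratios, and those of 4.99 and 5.14 in libraries 2-1 and 2-2 were below all 4.

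**Figure D3:**
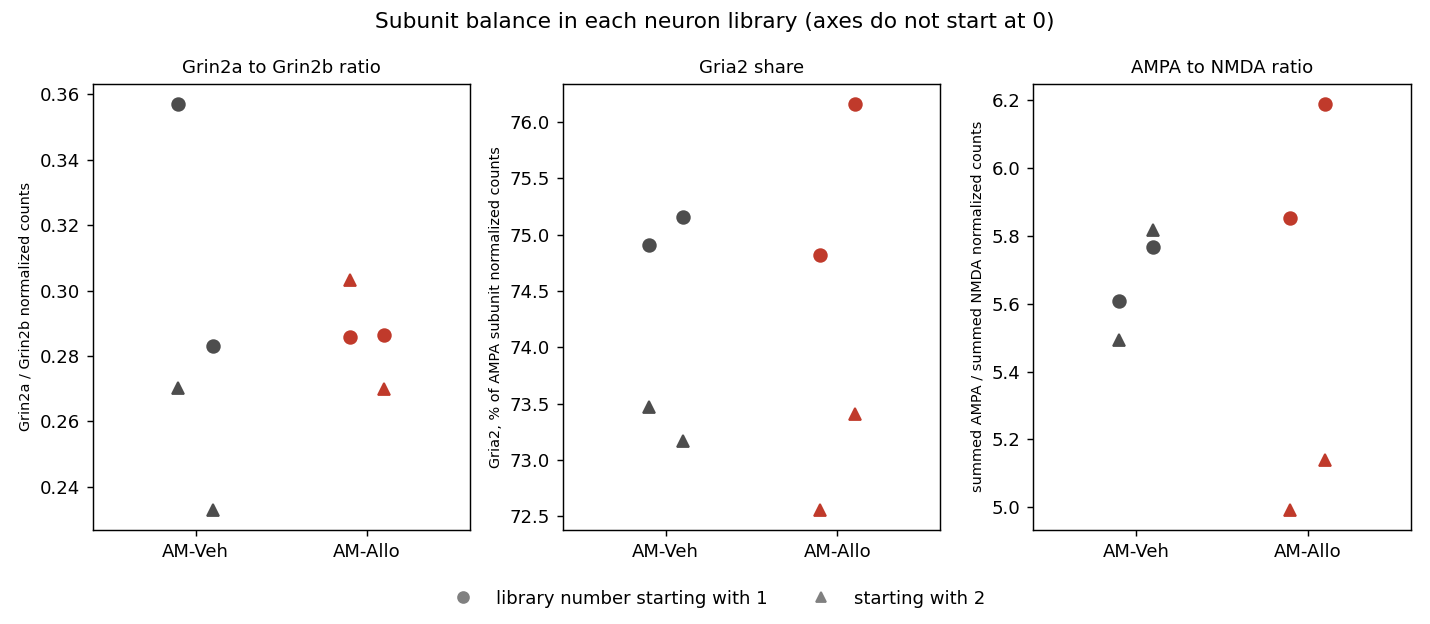
Subunit balance in each of the 8 neuron libraries: the ratio of Grin2a to Grin2b counts, the percent of AMPA subunit counts that are Gria2, and the ratio of summed AMPA to summed NMDA counts (circles, numbers starting with 1; triangles, starting with 2; y axes do not start at 0). The Gria2 share separates circles from triangles, and the AMPA to NMDA ratio of the AM-Allo libraries lies above the AM-Veh range for circles and below it for triangles.

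The first number of a neuron library, whose meaning the labels do not give, separated several subunit genes. With treatment in the model, 6 of the 10 members differed between first numbers 2 and 1 at an unadjusted p under 0.05 and 4 at an adjusted p under 0.05, where 29.3% and 17.2% of all genes did. Gria2 lay between 16260 and 17190 in the libraries numbered 1 and between 15090 and 15460 in those numbered 2, a log2 difference of -0.13 ± 0.0211 (limma, adjusted p = 0.00039). From first number 1 to 2 Grin3a fell by 0.278 on the log2 scale (limma adjusted p = 0.00104) and Grin2c fell by 0.246 (limma adjusted p = 0.0141). Gria4 was higher in those libraries by 0.10 (adjusted p = 0.0477), as were Grin1 by 0.14 (adjusted p = 0.0801) and Grin2b by 0.16 (adjusted p = 0.162), whose calls were lost on adjustment over all genes. Grin1 also lost its unadjusted call without any 1 AM-Allo library, and Grin2b without AM-Veh 1-1, AM-Veh 2-1, AM-Allo 1-2, AM-Allo 2-1 or AM-Allo 2-2. Exact permutation over the 8 libraries gave p = 0.0286 for Gria2, Gria4 and Grin2c, p = 0.0571 for Grin3a, p = 0.114 for Grin1 and p = 0.143 for Grin2b. The direction was thus not shared among the members: Gria2, Grin2c and Grin3a were lower, and Gria4, Grin1 and Grin2b higher.

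The difference with Allo also depended on the first number for 4 of the 10 members at an unadjusted p under 0.05 (Gria1, Gria3, Grin1 and Grin2a), where 9.53% of all genes passed, and for none at an adjusted p under 0.05 (limma). The Grin1 difference with Allo was -0.14 in the libraries numbered 1 and 0.16 in those numbered 2, and these differed by 0.30 ± 0.066 (limma p = 0.000392, adjusted p = 0.134; exact permutation of treatment within first numbers p = 0.0556, the smallest possible). For Grin2a the estimates were -0.10 and 0.42, for Gria1 -0.03 and 0.20, and for Gria3 0.09 and -0.04, with adjusted p = 0.515, 0.395 and 0.497 for the difference between them, and exact permutation p = 0.111, 0.167 and 0.0556. These permutations are exact only if Allo had no effect in either set, so they do not test the difference between sets alone. The count of 4 members fell to 1 (Grin1) in a fit with no variance trend and when AM-Veh 1-1, AM-Veh 2-2 or AM-Allo 2-1 was dropped, and to 2 when AM-Allo 1-2 or AM-Allo 2-2 was. Grin3a was higher with Allo within both sets, by 0.22 and 0.19 on the log2 scale, and these estimates differed by -0.04 ± 0.0995 (limma adjusted p = 0.951).

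**Figure D4:**
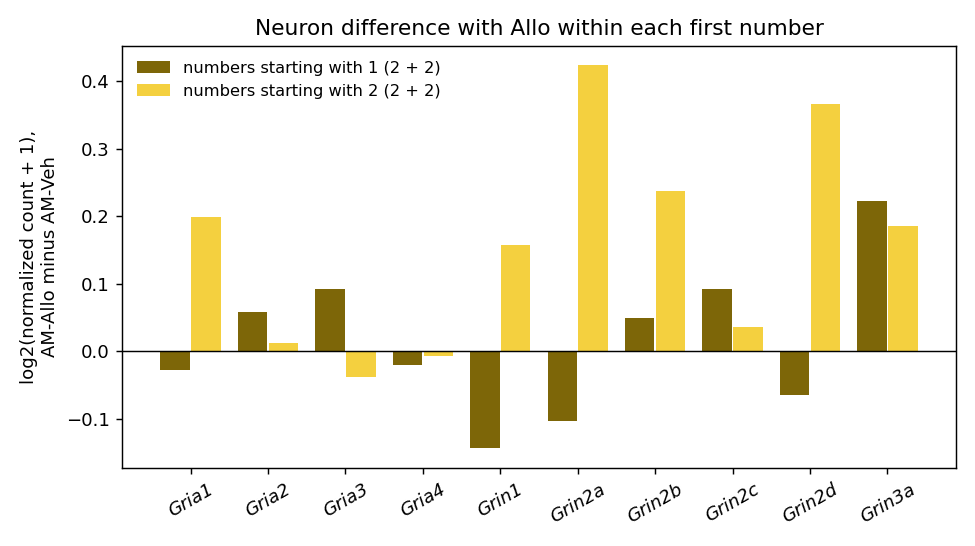
Difference with Allo in neurons within each set of 2 AM-Allo and 2 AM-Veh libraries, as AM-Allo minus AM-Veh means of log2(normalized count + 1) for the libraries numbered 1 (dark) and 2 (light). Grin1 and Grin2a lie below 0 in the first set and above 0 in the second, while Grin3a is near 0.20 in both.

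Markers of neuron types moved with Allo in the same neuron libraries. Of the 6 glutamatergic markers 5 had estimates above 0 and Slc17a6 lay below it, with a median of 0.139. Slc17a7 (log2 difference 0.29 ± 0.0795, limma adjusted p = 0.589) and Tbr1 (0.21, adjusted p = 0.796) were higher past the unadjusted threshold. All 6 GABAergic neuron markers had estimates below 0, with a median of -0.43. Of these Sst fell by 0.592 (adjusted p = 0.65) and Gad2 fell by 0.448 (adjusted p = 0.799). With the replicate block Sst, Gad1 and Gad2, which were lower, and Tubb3, a neuronal tubulin gene, which was higher, also passed after adjustment (limma adjusted p = 0.00452, 0.0392, 0.0178 and 0.044). Without the block Map2 and Tubb3 were higher without overlap between the groups (adjusted p = 0.677 and 0.539) and Nefl fell by 0.228 (adjusted p = 0.712), each past the unadjusted threshold. Of the 7 neuron markers tested, 3 had estimates above 0 and 4 below, with a median of -0.0681. The summed GABAergic markers ran from 4984 to 6564 in AM-Veh and from 2978 to 5588 in AM-Allo, the summed glutamatergic markers from 3954 to 4929 and from 4572 to 5497, and none of the 6 GABAergic markers was at 0 in both groups. The summed astrocyte markers ran from 192000 to 252300 and from 191400 to 244900, and the summed oligodendrocyte lineage markers from 38200 to 42610 and from 38320 to 45140. With the replicate block 5 of the 7 oligodendrocyte lineage markers were higher and 4 of the 6 GABAergic markers lower, where 11% of all genes were called (882 higher and 802 lower). The part of these markers in the subunit values was not tested.

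Genes that work with the receptors were counted in 4 lists, to be read against the 5.69% of all genes called in neurons, or 11% with the replicate block. Of 17 AMPA receptor auxiliary genes tested, Prrt1, which encodes a protein bound to AMPA receptors, was higher (1163 ± 44.06 against 1318 ± 155.9, log2 difference 0.17 ± 0.0749, limma adjusted p = 0.845), and with the replicate block 3 were higher (Prrt1, Shisa7 and Porcn). Prrt1 lost its unblocked call in a fit with no trend and without any of AM-Veh 1-1, 1-2 and 2-1 and AM-Allo 2-1 and 2-2. Their median log2 difference was 0.00465, and the auxiliary genes with the most counts, Cacng4 and Cacng7, encode transmembrane regulators of AMPA receptors and stood at 8677 ± 330.3 and 3814 ± 236.6 in AM-Veh. None of the 16 scaffold and trafficking genes was called (median 0.0268). These include Dlg4, which encodes the postsynaptic scaffold PSD-95 and stood at 4621 ± 144.6 in AM-Veh and 4667 ± 199 after Allo, and Nsf, an ATPase of membrane fusion, at 3951 ± 233.1 and 4019 ± 100.5. With the block Dlgap3 was lower.

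Of 10 kainate, delta and other receptor genes, Neto2, which encodes an auxiliary subunit of kainate receptors, was higher (645.1 ± 17.99 against 698.5 ± 35.93, log2 difference 0.11 ± 0.0499, limma adjusted p = 0.855), and the list's median was 0.0267. The Neto2 call was kept without AM-Veh 1-1 or AM-Allo 1-1 and lost when any of the other 6 libraries was left out. Grik5, a kainate receptor subunit gene, stood at 3242 ± 87.16 and 3407 ± 99.07, and Grid1, a delta receptor gene, at 1673 ± 58.05 and 1676 ± 109.5. With the block Grik5 and Neto2 were higher. None of the 6 editing and co-agonist genes was called (median -0.00195), among them Adarb1, whose enzyme edits the Gria2 pore codon and which stood at 1468 ± 52.13 in AM-Veh and 1387 ± 160.6 after Allo, and Adar at 1753 ± 46.82 and 1768 ± 42.53. Slc6a9, a glycine transporter gene, was higher with the block.

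In astrocytes 7 of the 10 members had a mean of at least 10 and were tested, and 1 changed, against 7.01% of 15380 genes (3.72% higher and 3.29% lower). Gria1 stood at 942, 1044 and 1044 in AM-Veh libraries 1, 2 and 3 and at 945, 937 and 860 in AM-Allo. AM-Veh 1 lay among the AM-Allo values and the other AM-Veh libraries above them. It fell by 0.143 ± 0.0594 on the log2 scale (limma p = 0.0311, adjusted p = 0.684; exact permutation p = 0.2, where 3 against 3 cannot go below 0.1), and no member passed an adjusted p of 0.05, which 0.0065% of genes did. The call was lost when AM-Veh 2, AM-Veh 3 or AM-Allo 3 was left out, and in a fit with no variance trend. The neuron estimate for Gria1 had the other sign and passed no threshold, and the difference between the cultures was not tested.

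Gria3 was the 1 member of the 7 whose groups did not overlap in astrocytes, as in 12.5% of genes. It stood at 4347, 4198 and 4237 in AM-Veh and at 4433, 4487 and 4436 in AM-Allo, a log2 difference of 0.06 with a 95% interval from -0.00893 to 0.136 (limma adjusted p = 0.768; exact permutation p = 0.1). Gria2 stood at 4960, 4428 and 4588 in AM-Veh and 5011, 4522 and 4700 after Allo, and Gria4 at 1162, 1183 and 1156 and at 1249, 1083 and 1181, with log2 differences of 0.03 and 0.00. The 95% interval of the fold was 0.948 to 1.09 for Gria2 and 0.923 to 1.09 for Gria4.

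Counts of the NMDA members were few in astrocytes. Grin1 stood between 2.86 and 5.37 normalized counts in the 6 libraries, Grin2a between 2.09 and 12.4, and Grin2b between 1.07 and 10.1, and none of these had the mean of 10 needed for a test. Grin2d stood at 47.2, 50.9 and 38.7 in AM-Veh and 49.4, 54.0 and 59.0 in AM-Allo (log2 difference 0.25 ± 0.2, limma adjusted p = 0.847). Grin3a stood at 44.6, 37.4 and 48.6 in AM-Veh and 55.6, 40.0 and 60.2 in AM-Allo (log2 difference 0.24 ± 0.221, limma adjusted p = 0.867). Grin2c stood between 10.5 and 25.7. The groups overlapped for all of these, and at this depth a fold of up to 1.68 for Grin2c, 1.6 for Grin2d or 1.64 for Grin3a lay within the 95% intervals.

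Gria2 made up 42.0% ± 1.37 of the AMPA subunit counts in AM-Veh astrocytes and 42.0% ± 1.03 in AM-Allo (SD, n = 3; two-sided exact permutation p = 0.9, where 3 against 3 cannot go below 0.1). Summed AMPA counts were 87.0 to 90.0 times the summed counts of the NMDA members in AM-Veh and 74.4 to 91.2 times in AM-Allo (mean log2 difference -0.11, exact permutation p = 0.4). Grin3b, left out of that sum, stood at 125 to 144 in AM-Veh and 146 to 193 in AM-Allo. The NMDA members summed to 120.6 to 131.1 and 127.6 to 150.3. A ratio that includes Grin3b was not computed and would be lower. The ratio of Grin2a to Grin2b counts ran from 0.284 to 2.40 over the 6 libraries and rests on counts under 13, so it was not tested.

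Set side by side, the cultures differed in which subunits made up the counts. Each table was normalized separately, so the values are descriptions with no test, given as normalized counts per 1000000 of the library's total (CPM) or as the share of a gene within its family, uncorrected for length. Gria3 made up 38.1% to 40.7% of the AMPA counts in astrocytes and 9.84% to 10.8% in neurons, while Gria2 made up 40.8% to 43.5% and 72.6% to 76.2%. In CPM, Gria3 stood at 175.1 to 188.0 in astrocytes and 97.4 to 108.9 in neurons, and was the 1 member of 10 that was higher in astrocytes. Gria2 stood at 184.7 to 210.4 CPM in astrocytes and at 675.9 to 780.4 in neurons.

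Grin1 lay far apart. It stood at 89.7 to 113.0 CPM in neurons and at 0.120 to 0.224 in astrocytes, and made up 53.5% to 60.8% of NMDA subunit counts in neurons but 2.16% to 3.57% in astrocytes. In astrocytes the counts of the NMDA members came mostly from Grin2d (31.5% to 42.2%) and Grin3a (30.1% to 43.6%). Grin3b, which is left out of the shares, stood at 124.7 to 192.5 normalized counts there, where the members summed to 120.6 to 150.3. In neurons Grin2d and Grin3a took 2.58% to 3.97% and 13.8% to 20.3%. For no member did the CPM ranges of the 2 kinds of culture overlap. Neuron cultures held both neurons and glia by their markers, and how much of each gene came from which cells was not tested.

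**Figure D5:**
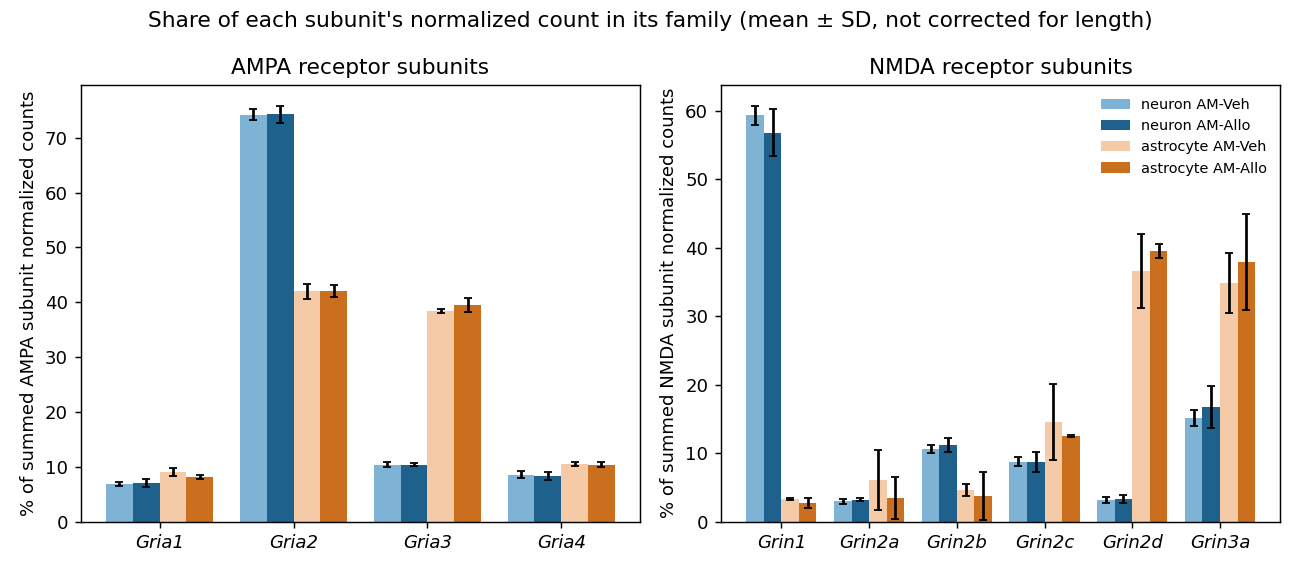
Percent of the summed AMPA (left) or NMDA (right) subunit counts taken by each subunit gene in neuron and astrocyte groups (bars, mean of 4 neuron or 3 astrocyte libraries; error bars, SD; axes start at 0; not corrected for length). Gria2 is near 74.2% in neurons and 42.0% in astrocytes, Gria3 and the pair Grin2d and Grin3a take more in astrocytes, and within each culture type the AM-Veh and AM-Allo bars lie close together. Grin3b is not part of the NMDA sums.

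In astrocytes none of 15 AMPA auxiliary genes tested was called (median log2 difference -0.000722), with Cacng4 at 4572 ± 123.9 and Cacng7 at 2009 ± 69.81 in AM-Veh. Cacng3 was at 0 in all 6 libraries. None of 13 scaffold genes was called (median -0.0152), with Dlg4 at 3095 ± 139.4 in AM-Veh and 3185 ± 63.02 after Allo. None of 5 editing and co-agonist genes was called (median 0.021), with Adar at 1743 ± 75.93 in AM-Veh and Rest, a repressor of neuronal genes, at 948.8 ± 39.7.

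Of 8 kainate, delta and other receptor genes tested in astrocytes, Neto2 was higher (52.19 ± 3.808 against 67.93 ± 1.483, log2 difference 0.38 ± 0.174, limma adjusted p = 0.709) and Grid1 was lower (59.11 ± 8.887 against 42.23 ± 6.609, fell by 0.477 ± 0.209, limma adjusted p = 0.7). Neto2 lost its call without any 1 of the 6 libraries, and Grid1 without number 1 or number 3 of either group. The list's median was 0.0285, Grik5 stood at 2298 ± 53.08 in AM-Veh and 2429 ± 64.28 after Allo, and Grik4, another kainate receptor gene, at 169.9 ± 16.83 and 155.8 ± 19.58. In the same libraries the astrocyte markers Slc1a2, which fell by 0.356, and S100b, which fell by 0.0877, passed the unadjusted threshold (limma adjusted p = 0.654 and 0.691). So did the neuron marker Map2, which fell by 0.1265 (adjusted p = 0.684), and the microglia marker Cx3cr1, which fell by 0.578 (adjusted p = 0.552). Of the 6 microglia markers 4 had estimates below 0 and 2 above. All 4 neuron markers tested and 7 of the 8 astrocyte markers had estimates below 0. The summed astrocyte markers ran from 226200 to 239600 in AM-Veh and from 225200 to 229900 after Allo, and their part in the subunit values was not tested.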

How the data were processed

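RNA of rat hippocampal neuron (4 AM-Veh, 4 AM-Allo) and astrocyte (3 and 3) cultures was sequenced as stranded poly(A) libraries with 150 bp paired reads. Per the study's methods and the submitters' processing notes, the authors quantified reads with Salmon 0.14 on Ensembl release 95 and normalized them with DESeq2 1.18.1. The authors deposited a signal of normalized counts (estimated counts imported with tximport and scaled by DESeq2, not whole reads) and VST values on a log2 scale. Groups came from the sample titles, and 0 columns of sample values were left out.

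Normalized counts were tested with limma 3.58.1 in R 4.3.3 (lmFit and eBayes with a trend on log2(count + 1), mean of at least 10, each culture type alone), with Benjamini-Hochberg adjustment over all genes tested. Ratios and shares were compared by exact permutation tests, which were also run over libraries for single members (within first numbers too, added after the data were seen). The scripts were tested on simulated data first. All 10 members were named, with the 2 genes of highest counts in each related list, up to 3 called genes a direction (smallest p), the markers with the highest counts and, for Grin2a, Grin2b and Grin3a, the 3 genes of most similar pattern. A gene that this rule names is not reported here. The members and lists were chosen with earlier results of these data known.

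Shares and ratios had been planned per transcript length; no transcript lengths were used here, so they are of counts. The residuals of neuron libraries with the same number correlated at 0.229 to 0.296 over genes, every pair over 0.1. Those that shared only the first number correlated at 0.185 to 0.236, and those with different first numbers at -0.319 to -0.15. The first number was therefore used as the block, and these values do not establish pairing by the whole number. The blocked result is given where it changes the call of a member or of a gene in the related lists. In the deposited neuron VST values the means of first numbers 1 and 2 were the same for each of 18239 genes (largest difference 7.5e-09), as after removal of that effect, so VST values give no first-number comparison and VST tests without a block count 1 degree of freedom too many. Promoter sequence is from RefSeq GRCr8, and 5 of 10 members matched. The depth per library was about 19600000 to 28600000 reads. Alternatives were other pseudocounts, filters, scalings, limma settings, VST values, replicate blocks and leaving out each library.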

Additional observations from a re-analysis of the deposited data

Results flagged for a closer look

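For 4 subunit genes the difference with Allo in neurons was not the same in the libraries numbered 1 and those numbered 2, by a test of the difference itself (interaction term in limma, 2 AM-Allo and 2 AM-Veh libraries in each set) at an unadjusted p under 0.05, which 9.53% of all genes passed. The count fell to 1 (Grin1) in a fit with no variance trend and without AM-Veh 1-1, AM-Veh 2-2 or AM-Allo 2-1, and to 2 without AM-Allo 1-2 or AM-Allo 2-2. Grin1 had log2 differences of -0.14 and 0.16 (limma p = 0.000392, adjusted p = 0.134, exact permutation p = 0.0556), Gria1 of -0.03 and 0.20 (p = 0.0182, adjusted p = 0.395, exact p = 0.167), Gria3 of 0.09 and -0.04 (p = 0.0411, adjusted p = 0.497, exact p = 0.0556) and Grin2a of -0.10 and 0.42 (p = 0.0463, adjusted p = 0.515, exact p = 0.111). The exact tests permuted treatment within first numbers and cannot go below 0.0556. They are exact only if Allo had no effect in either set, so they do not test the difference between sets alone. No adjusted p in this family of 15314 tests passed 0.05 for a member. The Grin1 p stayed under 0.05 in each of the 11 alternatives run for it. What the first number marks is not given in the sources used here.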

How the results depend on the processing

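The members called in neurons were 0 at first and 1 with VST values, with the replicate block by whole number or by first number, and with VST values and the block together (added after the data were seen), in each case Grin3a; leaving out 1 library gave 0 to 2. All genes called numbered 872 at an unadjusted and 4 at an adjusted p under 0.05, against 2204 and 158 with VST values, 1634 and 93 with the block by whole number, 1684 and 104 by first number, 1694 and 105 with both, 0 adjusted without a trend and 0 to 4 adjusted without 1 library. With unblocked VST values 1 member passed an adjusted p. The block changed no other member's call, and no balance passed 0.05 when tested over same-numbered pairs of libraries (a design too small to reach it). The Grin2a to Grin2b log2 difference of 0.0185 was -0.0269 with VST values and -0.0740 to 0.131 without 1 library, the Gria2 share difference -0.580 to 0.619 percentage points and the AMPA to NMDA difference -0.0931 to 0.0102. Single members turned sign without 1 library (Gria3 -0.00278 to 0.0441, Gria4 -0.0373 to 0.0161, Grin1 -0.0490 to 0.0659), as did first-number differences of Gria1 (-0.0207 to 0.0814), Grin2a (-0.124 to 0.105) and Grin2d (-0.00681 to 0.257). First-number calls, 6 at first, were 4 to 6, and interaction calls, 4 at first, were 1 without a trend and 1 to 5 without 1 library.

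In astrocytes the 1 member called was 0 without a trend and 0 to 1 without 1 library; genes at an adjusted p numbered 1, against 0 with a mean of at least 50, 0 without a trend, 4 with a robust fit, 17 with the replicate block and 1 to 72 without 1 library. The AMPA to NMDA difference was 0.0128 with VST values, and the Gria2 share difference ran from -0.506 to 0.83 without 1 library. Gria4 was -0.00446 with upper-quartile scaling and -0.00561 with quantile normalization (-0.0449 to 0.0576 without 1 library), Grin2c 0.0283 with quantile normalization (-0.344 to 0.263), and Gria2 -0.0135 to 0.0726. The numbers of astrocyte libraries were shared only as numbers (correlations -0.00698 to 0.0241), and the block by them changed no member's call. The causes were not tested. Lengths were not used, so the alternatives with coding length and median mRNA length were not run, nor was the first-number comparison with VST values. Depth limits Grin1, Grin2a and Grin2b in astrocytes, where a few reads decide a value.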

Other observations

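Grin3b, the NMDA subunit gene that is not among the 10, stood at 127, 125 and 144 normalized counts in AM-Veh astrocytes and at 193, 146 and 147 in AM-Allo, so that the groups did not overlap (log2 difference 0.29 ± 0.138, limma adjusted p = 0.723). It was chosen for mention after its values were seen. Per 1000000 normalized counts it stood at 5.20 to 8.09 in astrocytes and 8.35 to 10.9 in neurons.

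Over the 8 neuron libraries, the genes whose standardized log2 values lay closest to those of Grin2a were Rab3a, Myt1l and Srr, with root mean square differences of 0.143, 0.204 and 0.25, where the median over all genes tested was 1.35. For Grin2b they were Dmxl1 (0.224), Gabra3 (0.241) and Cacna1i (0.287), against a median of 1.33. For Grin3a they were Stard7 (0.176), Insig1 (0.197) and LOC100911166 (0.233), against a median of 1.31. These are descriptions over libraries that share a first number, and the closest of many genes is close by selection.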
